A study of Mus musculus with 4 samples.

Results

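Collagen genes encode the alpha chains that fold by threes into the triple helices of the extracellular matrix. In the 4 plate tables, rows were taken as members where the biotype was protein coding and the whole symbol read Col, a number, the letter a and a number. This gave 44 genes of 35998 gene identifiers, of which 43 were listed on the fasted plate (Col17a1 was not). Fibrillar chains (11 genes) build the rope-like fibrils of connective tissue, and the network chains of collagen IV (6 genes) build the sheet of every basement membrane. Collagen VI chains (6 genes) form beaded microfilaments, FACIT chains (9 genes) decorate fibrils, and multiplexins (2 genes) sit at basement membrane zones. Short chain collagens (3 genes) form open lattices, transmembrane collagens (4 genes) stay anchored in the cell surface and shed their outer part, and 3 genes fall outside these types. In brain, most collagen is known from the meninges and the vessel wall, while the neuropil holds little fibrillar matrix.

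The cells were sorted from the hypothalamus of C57BL/6 mice that carry Lepr-cre and Rosa-LSL-tdTomato, 1 cell per well of 384-well plates, and sequenced with CEL-seq2. The fasted group was 1 plate, from mice without food for 24 h, and the fed group was 3 plates, here called fed plates 1, 2 and 3. All 4 plates share both alleles. The red reporter marks every cell, or descendant of a cell, in which the Lepr promoter was once active, whether or not Lepr is still transcribed. The sources used here do not give age, sex or the number of animals. They do not say whether plates stem from different mice either, so p-values describe the spread between plates, which may be technical.

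Wells were kept with at least 1000 transcripts and a mitochondrial share under 30%, which left 270 fasted wells and 356, 322 and 331 fed wells. Their transcripts summed to 5092519 on the fasted plate and 5529965, 4398233 and 4705000 on the fed plates. Wells were clustered without the collagen genes and named from markers that hold no collagen. This gave 92 fibroblast-like wells (14 of 14 markers met), 37 mural-like wells (pericytes and smooth muscle cells, 10 of 10 and 9 of 9 markers), 168 endothelial-like wells (12 of 12), 223 tanycyte-like wells (8 of 12) and 380 neurons. Tanycytes are the ependymoglial cells that line the floor of the third ventricle. Among tanycyte-like wells, the cluster of 155 wells also met 5 of 8 ependymal markers and the cluster of 68 wells 1 of 8. Summed ependymal markers stood at 692 CPM on the fasted plate and 705 to 934 on the fed plates in tanycyte-like wells. Their part in the collagen levels there was not tested. On fed plate 2, mural-like cells filled 4 wells, too few for a level or a test. Levels are CPM, the transcripts of a gene scaled to a fixed total for the wells of a class on a plate. Each molecule is counted by 1 tag at its 3′ end, so levels are not divided by gene length. Means ± SD are over fed plates. Their precision is limited by counts: 29800 collagen transcripts among 19725717.

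Of the 44 members, 40 had at least 50 transcripts in kept wells. Col10a1 (7 transcripts), Col17a1 (13), Col28a1 (43) and Col6a4 (8) fell below and are not described further. Among the 40, the highest level lay in fibroblast-like wells for 17, in mural-like, ependymal-like and oligodendrocyte precursor-like wells for 5 each, in tanycyte-like wells for 4, in endothelial-like wells for 2, and in neurons and microglia or macrophage-like wells for 1 each. Summed over all members, fibroblast-like wells held 9271 CPM on the fasted plate and 11101 ± 2514 on the fed plates (n = 3). The sums were 5942 and 6266 ± 750 in tanycyte-like wells, 5206 and 3652 ± 669 in mural-like wells (2 fed plates), 1610 and 1508 ± 160 in endothelial-like wells, and 465 and 503 ± 50.2 in neurons, each with the fasted plate first. Fibroblast-like wells were the highest on every plate and neurons the lowest of these 5 classes. Thinned to 1000 transcripts each, to set aside depth (median transcripts 5129.5 in fibroblast-like wells, 28696.5 in neurons), a fibroblast-like well held a median of 6 different collagen genes and a neuron 0.

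**Figure D1:**
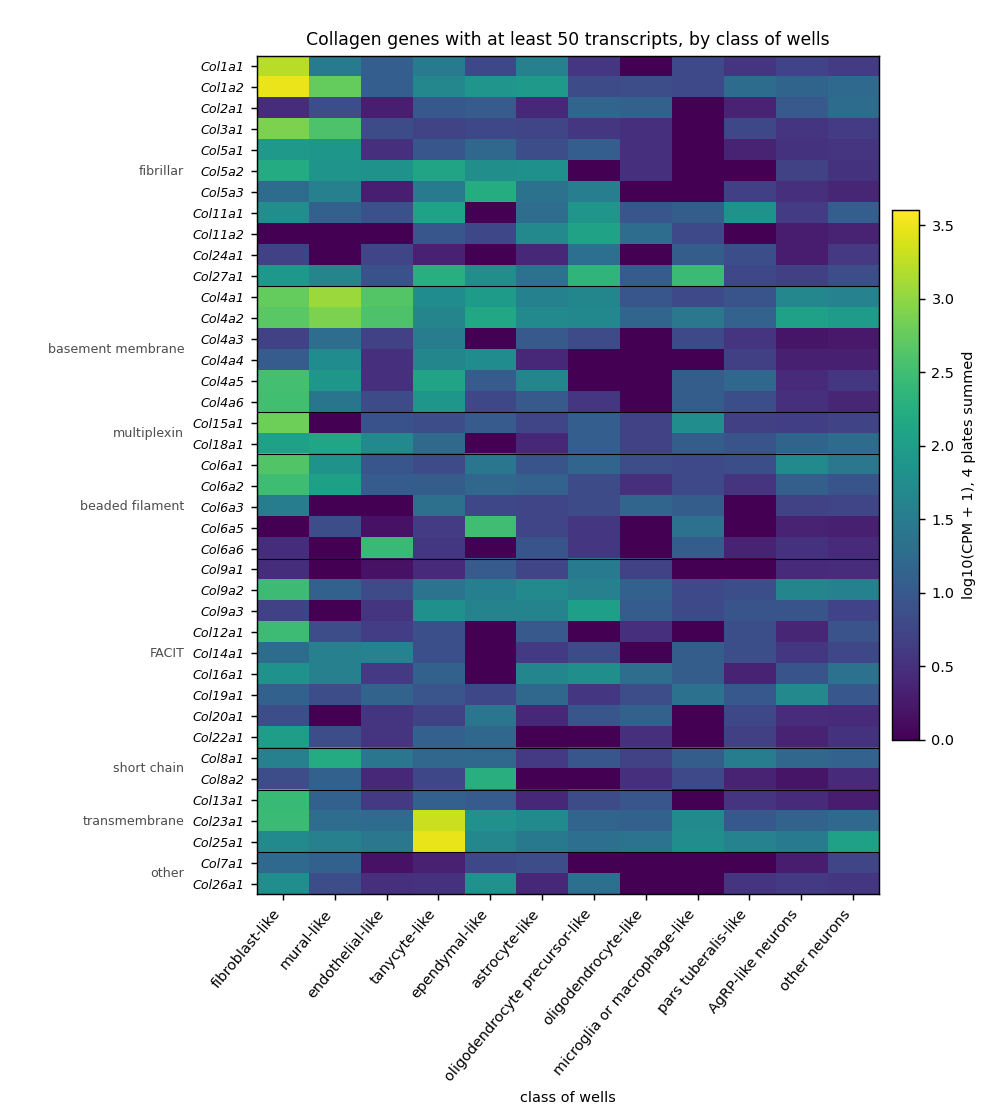
Level of each of the 40 members with at least 50 transcripts (rows, ordered by structural type) in 12 classes of wells (columns), as log10 of CPM plus 1 over all 4 plates. Fibroblast-like wells carry most types, tanycyte-like wells carry Col23a1 and Col25a1, and the vascular classes carry Col4a1 and Col4a2.

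Of the 11 fibrillar genes, 5 had their highest level in fibroblast-like wells, namely Col1a1, Col1a2, Col3a1, Col5a1 and Col5a2. Col1a1 and Col1a2, the alpha 1 and alpha 2 chains of type I collagen, and Col3a1, the single chain of type III, were the 3 most abundant fibrillar genes there. Col1a2 stood at 2724 CPM on the fasted plate and 3416, 3412 and 2749 on the fed plates in fibroblast-like wells. In tanycyte-like wells the same gene stood at 89.9 on the fasted plate and 20.5, 26.3 and 46.0 on the fed plates, and in neurons at 10.3 and at 15.99, 15.6 and 16.8. Every fibroblast-like plate value lay above every value of the other 4 classes. Mural-like wells came second, with 784 on the fasted plate and 745 and 322 on fed plates 1 and 3, and endothelial-like wells had 0 on the fasted plate and 11.96, 9.90 and 15.7 on the fed plates.

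After thinning to 1000 transcripts, 84 of 92 fibroblast-like wells held a Col1a2 transcript (91.3%, exact Clopper-Pearson 95% interval 83.6 to 96.2%), against 8 of 380 neurons (2.11%, 0.913 to 4.11%) and 0 of 51 oligodendrocyte-like wells. A count of 0 in 51 wells allows a share of up to 5.88% (3 counts of the total; the exact upper bound is 6.98%), so a difference between neurons and oligodendrocyte-like wells was not detectable with this number of wells. The median depths were 28696.5 transcripts in neurons and 9016 in oligodendrocyte-like wells. Intervals and floors cover counting error only. The edgeR quasi-likelihood test with Benjamini-Hochberg adjustment, on sums per plate with plate as block, called 23 of 34 tested members higher and 1 lower in fibroblast-like wells than in the remaining wells. Of all 13787 genes tested, 29.8% were called, 10.2% higher and 19.6% lower. The median log2 fold was 2.63 over the members tested and −0.33 over all genes. By type, 7 of 9 fibrillar, 4 of 6 network, both multiplexin, 3 of 3 beaded filament and 4 of 7 FACIT members tested were higher.

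Col1a1 had the largest fold (log2 6.93 ± 0.26 SE, adjusted p = 3.42e-137), with Col1a2 at 6.5 ± 0.25 and Col3a1 at 6.30 ± 0.27. Col15a1, a multiplexin of the outer basement membrane zone, stood at 6.77 ± 0.28, and Col13a1, a transmembrane collagen known from adhesion sites, at 6.29 ± 0.34. All of these were higher on 4 of 4 plates. Col25a1, the transmembrane collagen also known as the precursor of CLAC, a component of amyloid plaques, was the 1 member lower (−2.85 ± 0.31, adjusted p = 1.03e-18). The remaining wells against which this is set include the tanycyte-like ones.

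The Col1a2 promoter is shown because this gene had the highest collagen level of any class. The window runs from 250 bases before to 50 bases after the RefSeq start (GRCm38.p6, chr6:4505368-4505667, + strand), and capitals mark CCAAT on either strand, a motif known from collagen I promoters, found 109 bases before the start and at the start.
Col1a2: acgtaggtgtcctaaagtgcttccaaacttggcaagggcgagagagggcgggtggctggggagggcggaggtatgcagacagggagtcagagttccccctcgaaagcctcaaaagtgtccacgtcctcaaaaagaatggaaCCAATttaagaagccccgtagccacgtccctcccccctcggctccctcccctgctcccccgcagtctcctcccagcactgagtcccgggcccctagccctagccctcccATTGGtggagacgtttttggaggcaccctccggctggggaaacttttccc
Of the 44 members, 35 matched RefSeq promoter windows, and 13 of the 35 held CCAAT, against 37.4% of all 32851 windows. TATAAA was in 5 members (13.6% of all windows) and GGGCGG in 22 (35.7%), each searched on both strands, and matches of different motifs may share bases at their ends. These letters are a description and say nothing of which factor binds.

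Both chains of type I collagen were seen in the same well in 89 of 92 fibroblast-like wells. Col1a1 made up 34.7% of the Col1a1 and Col1a2 transcripts there (95% interval 32.8 to 36.6%), with 26.3% on the fasted plate and 39.9, 37.7 and 27.8% on the fed plates. Every plate value lay outside this interval, which covers the counting error of pooled transcripts and not the spread between plates. In mural-like wells Col1a1 made up 5.15% (1.69 to 11.6%), from 5 Col1a1 and 92 Col1a2 transcripts, with 7.84% on the fasted plate and 7.14, 0 and 0% on the fed plates. The plate values of the 2 classes did not overlap. The mural-like values rest on these 5 Col1a1 transcripts, and that of fed plate 2 on 4 wells, too few for a level. Set against mural-like wells directly on 3 plates, fibroblast-like wells were higher in Col1a1 (log2 5.28 ± 0.57, adjusted p = 1.20e-08) and less so in Col1a2 (2.55 ± 0.39, adjusted p = 4.42e-06). The difference in Col3a1 did not pass this test (0.73 ± 0.38, adjusted p = 0.156).

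The minor fibrillar chains had other distributions. Col5a1 and Col5a2, which set fibril diameter, reached 70.6 and 183 CPM in fibroblast-like wells of the fasted plate and 86.4 ± 31.2 and 159 ± 13.9 on the fed plates (n = 3). Col5a2 was also high in tanycyte-like wells (177 fasted, 113 ± 24.2 fed) and in endothelial-like wells (57.8 fasted, 62.2 ± 39.9 fed), and it was called higher than in the remaining wells in all 3 classes (log2 2.66 ± 0.32, 2.58 ± 0.26 and 1.35 ± 0.32). Col11a1, a partner of type V chains in fibril cores, was highest in tanycyte-like wells, at 162 on the fasted plate and 84.9, 118 and 117 on the fed plates (log2 3.03 ± 0.19 against the remaining wells, adjusted p = 3.27e-09). Col27a1, a fibrillar chain known from cartilage, stood at 117 on the fasted plate and 237, 140 and 244 on the fed plates in tanycyte-like wells (log2 3.36 ± 0.37), and at 188 on the fasted plate and 239 and 248 on fed plates 2 and 3 in oligodendrocyte precursor-like wells. Its level over all plates was highest in microglia or macrophage-like wells, at 287 from 55 transcripts.

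Col11a2 was at 0 in all fibroblast-like, mural-like and endothelial-like wells and highest in oligodendrocyte precursor-like wells, at 106 on the fasted plate and 79.6 and 177 on fed plates 2 and 3. Col5a3 was highest in ependymal-like wells (169 over all plates, 34 transcripts in 24 wells), and Col24a1, with 68 transcripts in all, in oligodendrocyte precursor-like wells (19.4). Col2a1, the cartilage fibril chain, was highest in oligodendrocyte precursor-like wells by its level over all plates (13.9, from 5 transcripts in 2 wells), but had 155 of its 200 transcripts in neurons, at 10.3 on the fasted plate and 15.3, 16.2 and 10.2 on the fed plates.

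Basement membrane collagens split into 3 patterns that follow the 3 gene pairs. The 6 chains lie head to head in pairs on the genome (GENCODE vM21 on GRCm38): Col4a1 with Col4a2 on chromosome 8, Col4a3 with Col4a4 on chromosome 1 and Col4a5 with Col4a6 on chromosome X. Col4a1 and Col4a2 form the common collagen IV of vessels, and the other chains are known from basement membranes of specialised epithelia. Col4a1 stood at 1702 CPM on the fasted plate and 1146 and 765 on fed plates 1 and 3 in mural-like wells. In endothelial-like wells it stood at 549 on the fasted plate and 380, 732 and 470 on the fed plates, and in fibroblast-like wells at 452 and at 769, 505 and 497. Tanycyte-like wells (55.0 fasted, 56.4 ± 9.24 fed) and neurons (45.9 fasted, 40.8 ± 8.07 fed) lay below all 3 of these classes on every plate.

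Col4a1 was called higher than in the remaining wells in mural-like (log2 3.36 ± 0.46), endothelial-like (2.78 ± 0.21) and fibroblast-like wells (2.59 ± 0.23), and Col4a2 likewise (2.33 ± 0.44, 2.17 ± 0.21 and 1.94 ± 0.22). The mural call of Col4a2 was lost on leaving out the fasted plate (adjusted p = 0.0714) or fed plate 3 (0.107). Set against each other, fibroblast-like and endothelial-like wells gave a difference in Col4a1 that did not pass the test (0.25 ± 0.28, adjusted p = 0.535). Mural-like wells were higher than endothelial-like wells in Col4a1 (1.25 ± 0.37, adjusted p = 0.00746), and this call was lost on leaving out the fasted plate (adjusted p = 0.221) or fed plate 3 (0.0893). It was also lost with DESeq2 (adjusted p = 0.0838), with no filter on low counts (0.669) and with wells named by marker score (log2 0.62, adjusted p = 0.233). In the mural-like wells the summed endothelial markers ranged from 834 on the fasted plate to 845 and 974 on fed plates 3 and 1, against 14574 and 14459 to 20070 in endothelial-like wells. Of those 12 markers, Cdh5 was at 0 in mural-like wells.

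The pair that opens the vascular pattern shares its start. Col4a1 and Col4a2 start sites overlap by 22 bases, and their RefSeq windows (GRCm38.p6, chr8:11312777-11313076 on the − strand and chr8:11312555-11312854 on the + strand) by 78 bases. Capitals mark CCAAT and GGGCGG on either strand. The tags come from the 3′ ends of the genes, away from this overlap.
Col4a1: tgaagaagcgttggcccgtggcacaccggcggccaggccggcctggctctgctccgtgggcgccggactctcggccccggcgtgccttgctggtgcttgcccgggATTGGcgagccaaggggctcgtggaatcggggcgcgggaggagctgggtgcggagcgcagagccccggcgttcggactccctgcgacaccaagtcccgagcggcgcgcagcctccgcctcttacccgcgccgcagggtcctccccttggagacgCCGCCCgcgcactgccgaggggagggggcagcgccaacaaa
Col4a2: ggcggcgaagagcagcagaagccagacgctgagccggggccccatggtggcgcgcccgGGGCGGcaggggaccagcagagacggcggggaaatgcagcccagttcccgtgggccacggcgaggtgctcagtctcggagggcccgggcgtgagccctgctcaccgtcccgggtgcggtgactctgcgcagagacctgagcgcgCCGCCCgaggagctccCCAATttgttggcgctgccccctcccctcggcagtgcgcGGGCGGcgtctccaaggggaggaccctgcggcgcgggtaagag
Although the starts are shared, the balance of the pair differed between classes. Col4a1 made up 28.7% of the pair's transcripts in neurons (95% interval 26.6 to 30.9%), at 26.7% on the fasted plate and 30.1, 30.6 and 27.4% on the fed plates. It made up 51.9% in endothelial-like wells (49.4 to 54.4%), at 46.7% on the fasted plate and 53.3, 52.1 and 52.3% on the fed plates, and 59.0% in mural-like and 54.2% in fibroblast-like wells. The neuronal values lay below the endothelial values on every plate, with no overlap. Col4a2 itself stood at 126 on the fasted plate and 86.5, 114 and 93.4 on the fed plates in neurons, which was not called different from the remaining wells (log2 −0.78 ± 0.29, adjusted p = 0.0514), whereas Col4a1 was lower in neurons (−2.23 ± 0.29, adjusted p = 0.000461). After thinning, 36 of 380 neurons held a Col4a2 transcript (9.47%, 6.72 to 12.9%; 15.4% when thinned to 2000 transcripts) and 10 held Col4a1 (2.63%, 1.27 to 4.79%), against 0 of 51 oligodendrocyte-like wells for both.

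Col4a5 and Col4a6 ran together in fibroblast-like and tanycyte-like wells and were almost absent from endothelial-like wells. Col4a5 stood at 381 on the fasted plate and 330, 360 and 301 on the fed plates in fibroblast-like wells, and at 150 on the fasted plate and 90.7, 113 and 143 on the fed plates in tanycyte-like wells. Endothelial-like wells held 4 Col4a5 transcripts in all. Against the remaining wells, the log2 folds of Col4a5 and Col4a6 were 4.35 ± 0.26 and 4.96 ± 0.27 in fibroblast-like wells and 2.90 ± 0.20 and 2.51 ± 0.22 in tanycyte-like wells. Col4a5 was lower in endothelial-like wells (−3.27 ± 0.66, adjusted p = 9.08e-06) and in neurons (−4.83 ± 0.33), and so was Col4a6 (−1.61 ± 0.58 and −4.69 ± 0.32), the endothelial call of Col4a6 being lost on leaving out any 1 of the 3 fed plates (adjusted p = 0.0531 to 0.0969). Fibroblast-like wells exceeded endothelial-like wells in Col4a5 by a log2 fold of 7.07 ± 0.50.

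Col4a3 and Col4a4 had low counts. Col4a4 stood at 50.0 on the fasted plate and 43.9, 50.7 and 33.6 on the fed plates in tanycyte-like wells (log2 3.68 ± 0.35 against the remaining wells, adjusted p = 2.78e-07). Col4a3 stood at 22.5 on the fasted plate and 23.4, 70.9 and 12.4 on the fed plates (3.04 ± 0.45). Tanycyte-like wells held 59 of 118 Col4a3 and 79 of 138 Col4a4 transcripts. By level over all plates, Col4a4 stood at 54.8 in mural-like wells, 54.7 in ependymal-like wells (11 transcripts) and 43.9 in tanycyte-like wells. Col4a4 was also called higher in mural-like wells (adjusted p = 0.0136), from 9 transcripts of which 8 lay in 1 well of the fasted plate, and without that plate the log2 fold was 0.62 (adjusted p = 0.935). The call was lost without fed plate 1 (adjusted p = 0.081), without fed plate 3 (0.159), with DESeq2 (0.0786) and with no filter on low counts (0.081) too.

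Among the multiplexins, Col15a1 stood at 409 on the fasted plate and 998, 720 and 360 on the fed plates in fibroblast-like wells. It was at 0 in all 37 mural-like wells, so fibroblast-like wells were at least 29.9-fold higher on the 3 plates compared, with 3 counts over the mural-like wells as the floor. Col18a1, the source of endostatin, stood at 66.7 on the fasted plate and 229 and 148 on fed plates 1 and 3 in mural-like wells, at 42.3 and at 186, 107 and 98.2 in fibroblast-like wells, and at 61.9 and at 50.0, 19.8 and 62.6 in endothelial-like wells. It was called higher than in the remaining wells in all 3 classes (log2 2.36 ± 0.65, 2.43 ± 0.37 and 1.33 ± 0.35), the mural call being lost on leaving out the fasted plate (adjusted p = 0.0696) or fed plate 3 (0.593).

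**Figure D2:**
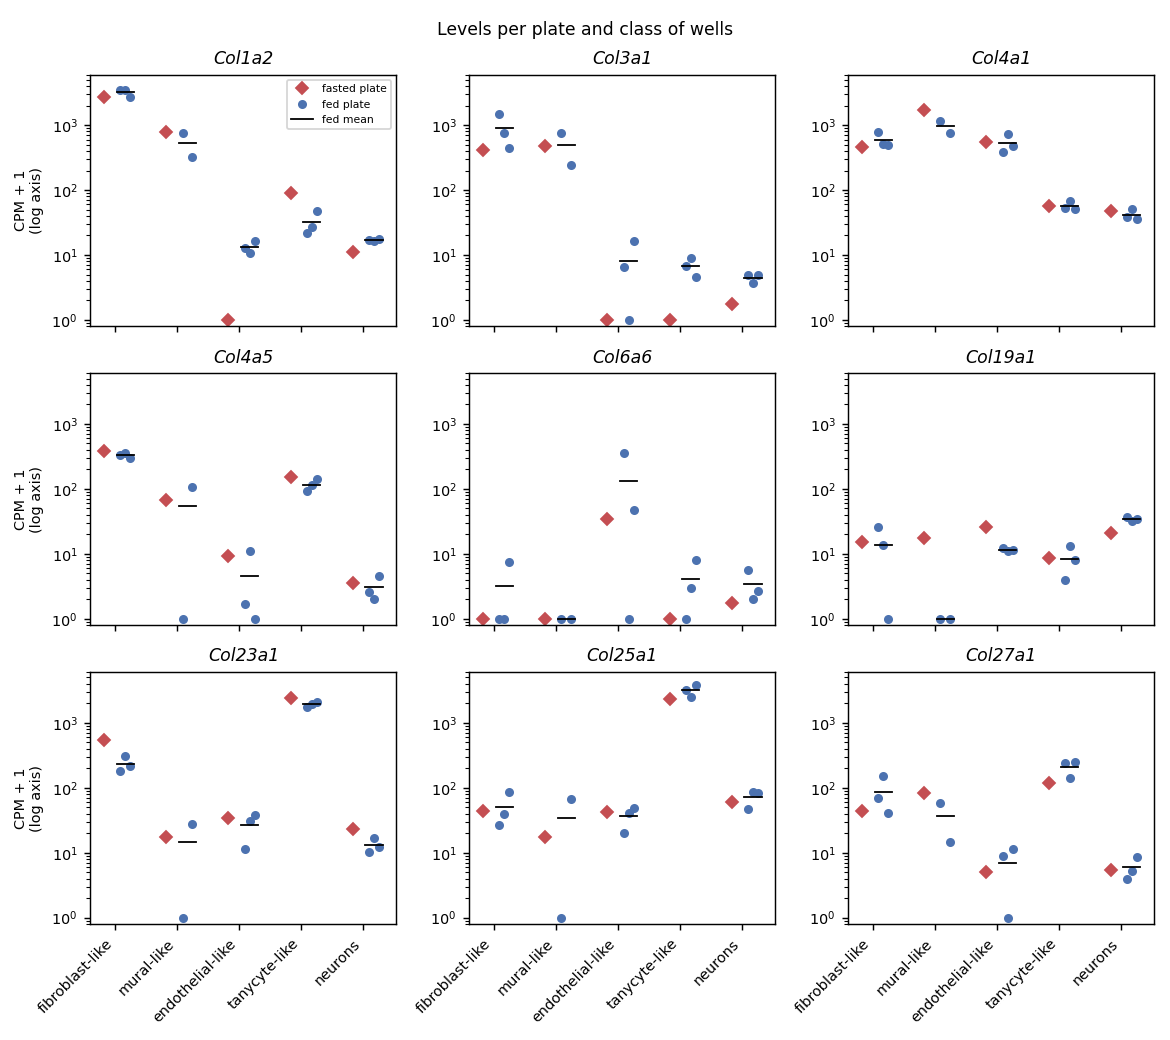
Level of 9 members on each plate in 5 classes, as CPM plus 1 on a log axis, with the fasted plate as a red diamond, the fed plates as blue points and the mean of the fed plates as a line. Mural-like wells of fed plate 2 (4 wells) are left out, and a point at 1 means no transcript; Col25a1 and Col23a1 reach 1738 or more on each plate in tanycyte-like wells and 536 or less in the other classes shown, and Col6a6 is spread widest over the endothelial-like plates.

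Of the 4 transmembrane collagens, Col25a1 and Col23a1 had their highest levels in tanycyte-like wells. Col25a1 stood at 2333 CPM on the fasted plate and 3210, 2448 and 3857 on the fed plates, and Col23a1, a transmembrane collagen shed by furin, at 2373 on the fasted plate and 1738, 1944 and 2087 on the fed plates. Tanycyte-like wells held 5418 of all 6544 Col25a1 and 3682 of all 4203 Col23a1 transcripts. Both genes were seen together in 188 of 223 wells, Col23a1 alone in 34 and Col25a1 alone in 1. After thinning, 185 of 223 wells held Col23a1 (83.0%, 77.4 to 87.7%) and 151 held Col25a1 (67.7%, 61.1 to 73.8%), against 1 and 2 of 51 oligodendrocyte-like wells (1.96% and 3.92%), with median depths of 7217 and 9016 transcripts.

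In the test against the remaining wells, 12 of 33 members were higher and 10 lower in tanycyte-like wells. Of all genes tested 42.8% were called, 18.6% higher and 24.1% lower. The members' median log2 fold was −0.27 and that of all genes −0.06. Col23a1 had the largest fold (6.11 ± 0.20, adjusted p = 5.14e-12), with Col25a1 at 5.52 ± 0.23 (1.80e-09), both higher on 4 of 4 plates. Beside these, Col4a3 to Col4a6, Col5a2, Col5a3, Col11a1, Col27a1, Col6a3 and Col9a3 were higher. The largest falls were those of Col6a1 (−3.15 ± 0.38), Col3a1 (−2.86 ± 0.41), Col15a1 (−2.00 ± 0.47), Col4a2 (−1.84 ± 0.20) and Col19a1 (−1.74 ± 0.38). By type, 4 of 6 network members were higher and 2 lower.

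**Figure D3:**
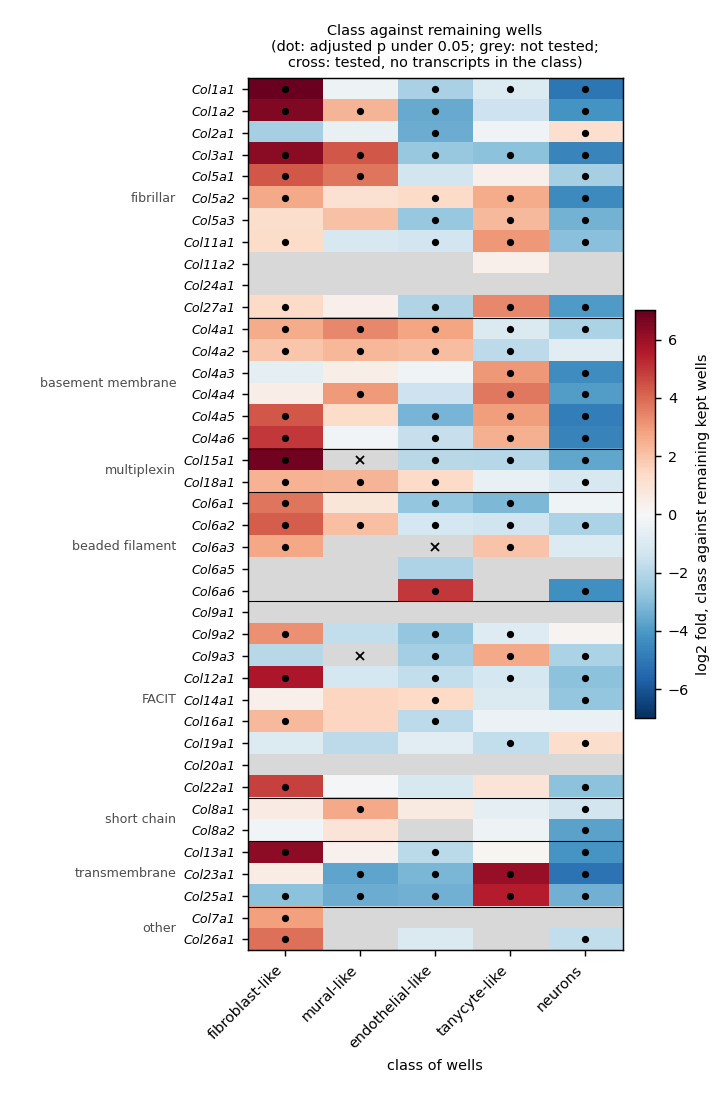
Log2 fold of each member in 5 classes against the remaining kept wells (red higher, blue lower), with a dot where the adjusted p of edgeR's test was under 0.05, grey where the gene was not tested and a cross where a tested gene had no transcripts in the class. Fibroblast-like wells have dots in nearly every type, and neurons are blue almost throughout. Tanycyte-like wells have dots in the transmembrane, collagen IV, fibrillar, FACIT, beaded filament and multiplexin rows, in both directions.

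The windows of these 2 genes are shown because no other class came near their level. In the Col25a1 window (GRCm38.p6, chr3:130180595-130180894, + strand) capitals mark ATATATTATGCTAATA, the longest run of bases that occurs more than once there, beginning 161 and 75 bases before the RefSeq start. The motif was looked for after the sequence was read. Of all 32851 windows, 0.00304% hold it on either strand, which is the Col25a1 window alone. In the Col23a1 window (chr11:51289670-51289969, + strand) capitals mark GGGCGG on either strand. The RefSeq start of Col25a1 lies inside the GENCODE span of the gene, and which start is used in these cells was not tested.
Col25a1: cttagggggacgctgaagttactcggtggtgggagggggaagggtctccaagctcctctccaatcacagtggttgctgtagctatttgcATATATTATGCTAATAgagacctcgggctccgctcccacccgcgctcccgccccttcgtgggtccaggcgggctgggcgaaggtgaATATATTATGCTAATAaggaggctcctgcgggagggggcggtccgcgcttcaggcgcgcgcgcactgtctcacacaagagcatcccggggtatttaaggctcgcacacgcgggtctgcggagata
Col23a1: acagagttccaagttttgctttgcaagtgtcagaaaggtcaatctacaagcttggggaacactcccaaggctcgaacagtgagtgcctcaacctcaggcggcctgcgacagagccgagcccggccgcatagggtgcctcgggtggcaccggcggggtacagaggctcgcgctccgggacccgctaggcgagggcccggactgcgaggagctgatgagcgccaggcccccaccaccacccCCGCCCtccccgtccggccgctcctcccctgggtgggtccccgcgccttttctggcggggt

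Within tanycyte-like wells, Col25a1 varied and Col23a1 did not to the same extent. The cluster led by Scn7a, Fndc3c1 and Mest (68 wells) held Col25a1 at 2249 on the fasted plate and 4738, 4711 and 5899 on the fed plates. The cluster led by Crym, Frzb and Gpr50 (155 wells) held it at 2362 on the fasted plate and 1635, 1661 and 2337 on the fed plates. On the fed plates the Scn7a cluster lay above the Crym cluster throughout, while on the fasted plate, from 9 wells of the Scn7a cluster, it did not. Col23a1 stood at 2658 on the fasted plate and 1666, 1932 and 2091 on the fed plates in the Scn7a cluster, against 2275 and 1813, 1948 and 2084 in the Crym cluster, so the ranges overlapped. Col27a1 (293 against 126 over all plates), Col4a3 (82.2 against 5.19) and Col4a4 (89.98 against 18.2) had higher levels in the Scn7a cluster, and Col5a2 a lower level (89.98 against 146). The clusters were drawn from the same wells, so these values carry no test.

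**Figure D4:**
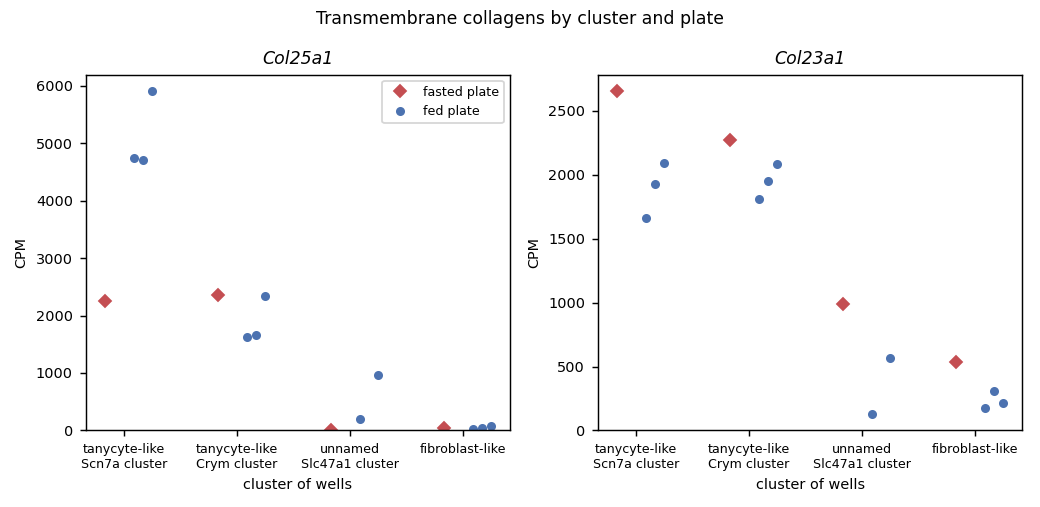
Col25a1 (left) and Col23a1 (right) in CPM in 4 clusters, with the fasted plate as a red diamond and each fed plate as a blue point where the cluster has at least 5 wells on it. Fed plates 1 to 3 lie at 4711 to 5899 for Col25a1 in the Scn7a cluster and at 1635 to 2337 in the Crym cluster, while Col23a1 overlaps between them.

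Col23a1 was also present in fibroblast-like wells, at 536 on the fasted plate and 178, 310 and 216 on the fed plates. It was seen in 40 fibroblast-like wells without Col25a1 and in 9 with it. It was higher there than in endothelial-like wells (log2 3.72 ± 0.34, adjusted p = 1.15e-07) and mural-like wells (3 transcripts in all) but was not called against the remaining wells (0.51 ± 0.23, adjusted p = 0.087). The summed tanycyte markers stood at 395 on the fasted plate and 661 to 922 on the fed plates in fibroblast-like wells, against 3742 and 5116 to 5955 in tanycyte-like wells, with 11 of 12 detected and Slc17a8 at 0. Their part in the Col23a1 level was not tested. Col13a1, the third transmembrane collagen with enough counts, stood at 212 on the fasted plate and 431, 259 and 190 on the fed plates in fibroblast-like wells, above every plate value of the other 4 classes.

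A cluster of 28 wells that stayed unnamed (led by Nov, Slc47a1, Prg4 and Slc26a2) held fibrillar and transmembrane collagens together. Col1a2 stood at 1393 over all plates, Col6a2 at 1013, Col1a1 at 799 and Col6a1 at 752, with Col25a1 at 633, Col8a1 at 586, Col23a1 at 546 and Col8a2 at 332. Col1a2 ranged from 110 on the fasted plate to 464 and 2029 on fed plates 1 and 3, so it was uneven between plates. Col25a1 was at 0 on the fasted plate and at 199 and 965 on the same fed plates. The wells were shallow, with a median depth of 0.32 of that of their plates.

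Endothelial-like wells were marked by Col4a1, Col4a2 and few other members. Against the remaining wells, 6 of 34 members were higher and 20 lower, with 47.6% of all genes called, 18.1% higher and 29.5% lower. The median log2 fold of the members was −1.79 and that of all genes −0.25. The members higher were Col4a1, Col4a2, Col5a2, Col18a1, Col6a6 and Col14a1. Col1a2 (log2 −3.54 ± 0.35), Col25a1 (−3.35 ± 0.26) and Col4a5, given above, were lower. Col2a1 was lower with 2 transcripts, and Col6a3, the third main chain of collagen VI, was at 0 and at least 4.40-fold lower, a call lost without fed plate 1 (adjusted p = 0.0692). Without fed plate 1, which held 99 of the 168 endothelial-like wells, 16 members were called in place of 26.

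Col6a6, a collagen VI chain, was highest in endothelial-like wells with 518 of its 570 transcripts. It stood at 33.0 on the fasted plate and 353, 0 and 47.0 on the fed plates, so fed plate 1 lay far above the rest. The fold against the remaining wells was 4.93 ± 0.94 (adjusted p = 0.0127), and without fed plate 1 the gene was too low to be tested. The cluster led by Ch25h, Lrg1, Lcn2 and Ackr1, with 67 of its 74 wells on fed plate 1, held 497 of these transcripts, at 461 on fed plate 1. On that same plate the cluster led by Car4 and Sema3c stood at 39.8 and the cluster led by Gkn3 and Cytl1 at 7.44. Summed fibroblast markers in endothelial-like wells were at 202 on the fasted plate and 3647, 228 and 511 on the fed plates, with all 14 detected on fed plate 1. Their part in the Col6a6 level was not tested; in fibroblast-like wells Col6a6 had 1 transcript.

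Col14a1, a FACIT known from tendon and skin, was called in endothelial-like wells (log2 1.38 ± 0.47, adjusted p = 0.0109), which was lost on leaving out the fasted plate (0.121) or fed plate 1 (0.138) and with DESeq2 (0.0566). The Gkn3 cluster, 26 wells, held it at 154, together with Col18a1 at 232, Col8a1 at 107 and Col4a1 at 530 over all plates. The Car4 cluster held 4.42 of Col14a1 and 6.63 of Col18a1, with Col4a1 at 564. These cluster values carry no test.

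Mural-like wells shared collagen IV with endothelial-like wells and part of the fibrillar set with fibroblast-like wells. On 3 plates, 9 of 31 members were higher and 2 lower than in the remaining wells, with 10.3% of all genes called, 4.48% higher and 5.84% lower, and medians of 0.86 over the members and −0.52 over all genes. Col3a1 stood at 484 on the fasted plate and 745 and 241 on fed plates 1 and 3 (log2 4.36 ± 0.53, adjusted p = 2.32e-14). Col1a2 was higher too (2.39 ± 0.46, adjusted p = 1.00e-05), a call lost without the fasted plate (0.205). Col8a1, a short chain collagen of the vessel wall, stood at 250 on the fasted plate and 115 and 121 on the fed plates (2.63 ± 0.63, adjusted p = 0.00073; 0.462 without the fasted plate). Col5a1 was called from 13 transcripts, 7 of them in 1 well (3.77 ± 0.82; adjusted p = 0.237 without fed plate 3). Col23a1 (3 transcripts; adjusted p = 0.0699 without fed plate 3) and Col25a1 (−3.49 ± 0.66) were lower.

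The number of members called was 5 on leaving out the fasted plate and 5 without fed plate 3, against 11 with all 3 plates. The pericyte cluster (27 wells) held Col4a1 at 1410, Col1a2 at 725 and Col3a1 at 574 over all plates, and the smooth muscle cluster (10 wells) held them at 708, 308 and 108. Against endothelial-like wells, 4 of 5 members tested were higher and none lower (26.7% of all genes called, 12.3% higher and 14.4% lower). These were Col3a1 (6.24 ± 0.61), Col1a2 (5.87 ± 0.58), Col8a1 (1.97 ± 0.56; adjusted p = 0.0762 and 0.0513 on leaving out the fasted plate or fed plate 3, given in that order, and 0.234 with no filter) and Col4a1, given above. Without fed plate 3, 2 members were called. The 5 tested are those that passed the filter on low counts in these same sums. With no filter, 3 members were higher than in endothelial-like wells and 1 lower. Summed fibroblast markers stood at 1285 on the fasted plate and 1261 and 1529 on fed plates 1 and 3 in mural-like wells, against 15495 and 17686 to 20491 in fibroblast-like wells. Of these, 12 of 14 were detected, with Pdgfra and Slc22a6 at 0, and their part in the fibrillar levels was not tested. In fibroblast-like wells, summed pericyte markers stood at 6294 on the fasted plate and 6558 to 8581 on the fed plates. There 9 of 10 were detected and 2 of 10 met. In mural-like wells pericyte markers stood at 22061 on the fasted plate and 13064 and 13548 on fed plates 1 and 3. Their part in the differences between these 2 classes was not tested. Col6a6 was at 0 in mural-like wells of the 3 plates compared. Endothelial-like wells of these plates held 518 transcripts of it, 501 of them on fed plate 1. Mural-like wells were thus at least 14.1-fold lower, with 3 counts as the floor.

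Fibroblast-like wells exceeded both vascular classes in most members that passed the filter on low counts. Against endothelial-like wells, 14 of 16 members were higher and none lower (37.7% of all genes called, 18.2% higher and 19.5% lower). The largest folds were those of Col1a2 (8.42 ± 0.46), Col3a1 (7.52 ± 0.51), Col1a1 (7.11 ± 0.46), Col4a5, given above, and Col15a1 (6.93 ± 0.40). The filter was applied to these same sums, so the lack of lower members among the 16 says nothing of the others. With no filter, 21 members were higher than in endothelial-like wells and 1 lower. Col6a6 had 1 transcript in fibroblast-like wells and 518 in endothelial-like wells, 501 of them on fed plate 1. Against mural-like wells, 11 of 16 were higher and none lower (31.8% of all genes called, 15.8% higher and 16.0% lower), among them Col12a1, Col9a2 and Col4a6, of which mural-like wells held 1, 2 and 3 transcripts. Here too the filter was applied to these same sums, so the lack of lower members says nothing of those not tested. With no filter, 11 members were higher than in mural-like wells and 0 lower. At Leiden resolution 1.0 and at 2.0, 11 were higher and 1 lower.

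The remaining types had their own places. Col6a1 and Col6a2, the paired chains of collagen VI, stood at 339 and 240 on the fasted plate and 444 ± 157 and 317 ± 136 on the fed plates in fibroblast-like wells (n = 3), with log2 folds of 3.76 ± 0.25 and 4.22 ± 0.28. In neurons Col6a1 made up 80.2% of the pair (76.7 to 83.4%), against 58.3% in fibroblast-like wells (53.0 to 63.4%). By plate these shares were 67.1% fasted and 82.3, 83.5 and 80.2% fed in neurons and 58.5% fasted and 58.7, 50.9 and 67.5% fed in fibroblast-like wells, so the ranges overlapped. Col6a3 was higher in fibroblast-like wells than in the remaining wells (2.71 ± 0.65, adjusted p = 0.000225), at 56.4 on the fasted plate and 29.9 ± 19.3 on the fed plates. Col6a5 was highest in ependymal-like wells, at 421 and 262 on fed plates 2 and 3, with 62 of its 100 transcripts in 24 wells. Col8a2, a short chain collagen known from the basement membrane of the cornea, was highest there too, at 197 and 199 on the same plates.

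Among FACITs, Col12a1 (494 on the fasted plate, 263 ± 51.8 on the fed plates), Col9a2 (212 and 317 ± 101), Col22a1 (70.6 and 109 ± 19.2) and Col16a1 (28.2 and 78.0 ± 17.4) were highest in fibroblast-like wells. Col9a3 and Col9a1, which join Col9a2 in the collagen IX of cartilage, were highest in oligodendrocyte precursor-like wells (108 and 30.5 over all plates). Col9a3 was also higher in tanycyte-like wells than in the remaining wells (log2 2.64 ± 0.26). Col20a1, with 61 transcripts in all, was highest in ependymal-like wells (24.9). Of the chains outside these types, Col26a1 had like levels in ependymal-like and fibroblast-like wells (64.7 and 58.0), and Col7a1, the anchoring fibril chain, had 8 of its 53 transcripts in fibroblast-like wells (15.99 CPM).

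Neurons were low in nearly all members. Of 34 members tested, 27 were lower and 2 higher than in the remaining wells, with 56.7% of all genes called, 27.4% higher and 29.3% lower, and medians of −2.89 over the members and 0.00 over all genes. The largest falls were those of Col23a1 (log2 −5.16 ± 0.33), Col1a1 (−5.08 ± 0.34), Col4a5, Col4a6 and Col3a1 (−4.62 ± 0.25). Col19a1, a FACIT-like chain known for a part in synapse formation in mice, was higher (1.24 ± 0.27, adjusted p = 0.0059), as was Col2a1 (1.18 ± 0.30, adjusted p = 0.0115), both on 4 of 4 plates. Of the 358 neuronal Col19a1 transcripts, 312 lay in the AgRP-like neurons described below. Over all plates Col19a1 stood at 48.7 CPM in AgRP-like neurons and 8.47 in other neurons, the latter below the remaining wells (12.6).

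Within neurons, the AgRP-like ones (189 wells), which make Agrp and drive feeding, differed from the other 191 in 5 of 13 members tested, 2 higher and 3 lower, with 15.1% of all genes called, 6.78% higher and 8.33% lower. The median log2 fold was 0.26 over the members and 0.00 over all genes. Col19a1 stood at 24.7 on the fasted plate and 48.9, 46.4 and 92.7 on the fed plates in AgRP-like neurons, against 12.7 and 6.56, 11.2 and 5.29 in other neurons (log2 2.62 ± 0.44, adjusted p = 0.00464). The plate values of the 2 groups did not overlap. Col6a1 was higher as well (0.98 ± 0.20, adjusted p = 0.00187). Col25a1 stood at 24.1 on the fasted plate and 22.8, 24.4 and 55.2 on the fed plates in AgRP-like neurons, against 112 and 103, 160 and 92.3 in other neurons, again with no overlap (−1.92 ± 0.30, adjusted p = 0.00391). Col16a1 (−1.29 ± 0.28) and Col2a1 (−1.06 ± 0.31) were lower, the first call being lost without fed plate 2 (adjusted p = 0.0508) or with DESeq2 (0.0516) and the second without fed plate 1 (0.199) or 2 (0.15) or with DESeq2 (0.203).

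The genes that modify, secrete, crosslink, bind and break down collagen were counted from 5 lists. Fibroblast-like wells were higher than the remaining wells in 13 of 16 basement membrane partners, led by Lama1 (log2 6.20 ± 0.26), Nid1 (5.77 ± 0.26) and Nid2 (5.58 ± 0.42), in 6 of 10 genes of procollagen processing and crosslinking, led by the enhancer Pcolce (7.07 ± 0.27) and the lysyl oxidase Lox (3.71 ± 0.68), and in 9 of 19 genes of collagen modification in the endoplasmic reticulum, led by the collagen chaperone Serpinh1 (3.16 ± 0.24). They were lower in 1 gene of each of these 3 lists. Of the receptors 5 of 8 were higher and 0 lower, led by the collagen-binding kinase Ddr2 (4.48 ± 0.28). Of the breakdown genes 4 of 7 were higher and 1 lower, led by Ctsk (4.19 ± 0.61) and the gelatinase Mmp2 (3.64 ± 0.48). Endothelial-like wells were higher in 10 of 16 basement membrane partners and lower in 3, led by perlecan, Hspg2 (3.43 ± 0.36), Lama5 (3.35 ± 0.31) and Lama4 (3.24 ± 0.25). In modification they were higher in 7 of 19 and lower in 5. Mural-like wells were higher in 9 of 16 basement membrane partners and lower in 0, led by Lamc3 (4.59 ± 0.61) and Lama2 (3.75 ± 0.49).

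Tanycyte-like wells were higher in 9 of 19 genes of collagen modification and lower in 1. The prolyl hydroxylase P3h2 (3.74 ± 0.19), the chaperone Fkbp10 (2.72 ± 0.34) and the lysyl hydroxylase Plod2 (1.82 ± 0.21) led. In basement membrane partners they were higher in 2 of 15 and lower in 7, with Nid1 (−3.99 ± 0.46), Lama4 (−3.90 ± 0.49) and Lama1 (−3.89 ± 0.44) lowest. In procollagen processing 3 of 9 were higher and 5 lower, with the tolloid protease Tll1 (3.08 ± 0.46) and the oxidase Loxl3 (2.76 ± 0.33) higher and Adamts2 lower, with 3 transcripts. Neurons were lower in 16 of 16 basement membrane partners and in 11 of 19 genes of collagen modification, in which 2, P4ha2 (1.55 ± 0.29) and P4ha3 (1.22 ± 0.30), were higher. These shares stand against the shares of all genes given above for each class.

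The fasted plate was set against the 3 fed plates. With 1 fasted plate, an effect of fasting and an effect of the plate cannot be told apart. The residual spread of a gene has 2 degrees of freedom and comes from the fed plates alone. The lone fasted plate is taken to vary as they do. The quasi-likelihood fit also shares spread between genes, so a p-value does not rest on the plates of its own gene alone. In sums over all kept wells, 0 of 41 members tested were called by edgeR, as were 0 of all 18241 genes (0%). At an unadjusted p under 0.05 there were 6 of the 41 members and 1500 of the 18241 genes. DESeq2 called 2 members, Col1a1 and Col6a1, both lower (named after their values were seen), and 79 genes in all. The median log2 fold, fasted over fed, was −0.56 over the members and −0.04 over all genes. Fewer cells of a type and less RNA per cell cannot be told apart in these sums: fibroblast-like wells were 4.44% of kept wells on the fasted plate and 7.02, 9.01 and 7.85% on the fed plates, and their part in the fold was not tested. Without fed plate 1, 9 members were called, all lower, and the share of all genes called in that fit is not given here. Col25a1 stood at 228 on the fasted plate and 233, 350 and 542 on the fed plates (−0.72 ± 0.47, adjusted p = 0.717), and Col23a1 (0.01 ± 0.47) and Col4a2 (−0.16 ± 0.33) had folds within their errors.

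Within classes, 4 could be compared. In fibroblast-like wells 0 of 24 members were called by edgeR (0.815% of all genes were). At an unadjusted p under 0.05 there were 5 members and 532 of 4660 genes. DESeq2 called 0 members and 0 of all genes. Col1a1 stood at 974 on the fasted plate and 2266, 2066 and 1060 on the fed plates, below all 3 but close to fed plate 3 (−0.89 ± 0.41, adjusted p = 0.365). Without fed plate 3 it was called (−1.22, adjusted p = 0.0122), as was Col3a1 (−1.50 ± 0.41, adjusted p = 0.0187). The fold of Col1a2 was smaller than its error (−0.24 ± 0.38, adjusted p = 0.804). Col4a6 stood at 593 on the fasted plate and 296, 284 and 262 on the fed plates, above all 3 (1.07 ± 0.42, adjusted p = 0.252). The fasted plate had 12 fibroblast-like wells.

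In endothelial-like wells 0 of 7 members were called (0.0147% of all genes). At an unadjusted p under 0.05 there were 0 members and 416 of 6780 genes, and DESeq2 called 0 members and 0 of all genes. Col4a2 (0.47 ± 0.45), Col4a1 (0.14 ± 0.46) and Col18a1 (0.39 ± 0.63) had folds about as large as their errors or smaller. In neurons 0 of 29 were called (0.173% of all genes, 0.140% higher and 0.0332% lower). At an unadjusted p under 0.05 there were 4 members and 1780 of 15044 genes. DESeq2 called 0 members and 62 genes in all, with 12 members left without an adjusted p. Col4a2 (0.38 ± 0.21), Col25a1 (−0.22 ± 0.33) and Col4a1 (0.18 ± 0.26) were the most abundant. Col6a1, named after its values were seen, was called lower without fed plate 1 (−1.07 ± 0.29, adjusted p = 0.0435) and without fed plate 3 (−1.44 ± 0.30, 0.0113), at 18.7 on the fasted plate and 54.5, 47.1 and 33.2 on the fed plates.

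In tanycyte-like wells 1 of 20 members was called, against 3.35% of all genes (2.00% higher and 1.35% lower), with medians of 0.02 over the members and −0.03 over all genes. This was Col1a2, higher at 89.9 on the fasted plate against 20.5, 26.3 and 46.0 on the fed plates (log2 1.47 ± 0.40, adjusted p = 0.0163). The fasted value came from 36 transcripts in 11 of 39 wells, the highest well holding 8. The call was lost without fed plate 1 (adjusted p = 0.0581) and without fed plate 2 (0.066), with no filter (0.0668), at Leiden resolution 2.0 (0.0828) and with wells named by marker score (0.148), and DESeq2 gave the gene no adjusted p. Summed fibroblast markers in these wells were lower on the fasted plate, at 130, than on the fed plates, at 201 to 293, with 10 of 14 detected on the fasted plate (Lum, Slc13a4, Slc22a6 and Tbx18 at 0). Other marker lists differed in these wells too. The summed pars tuberalis markers stood at 1234 on the fasted plate and 298, 89.2 and 131 on the fed plates, with 8 of 8 detected on the fasted plate. The astrocyte markers stood at 4796 on the fasted plate and 3356 to 4141 on the fed plates, and the tanycyte markers at 3742 and at 5116 to 5955. The lists of oligodendrocytes (457 fasted, 120 to 354 fed), their precursors (300 fasted, 84.9 to 186 fed), microglia or macrophages (162 fasted, 86.7 to 103 fed) and AgRP neurons (1696 fasted, 883 to 1422 fed) were also above all fed plates. Their part in the changes of tanycyte-like wells was not tested. Col1a1 stood at 24.98 on the fasted plate and 32.2, 44.6 and 21.2 on the fed plates (−0.37 ± 0.57), and Col3a1 at 0 and 5.85, 8.11 and 3.54. The abundant Col23a1 (0.30 ± 0.24) and Col25a1 (−0.44 ± 0.25) were not called.

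Of the genes that act on collagen, 3 were called in tanycyte-like wells by edgeR, against 3.35% of all genes there. They were 2 of 16 genes tested of the modification list and 1 of 6 tested receptors, with 0 called of 8 basement membrane partners, 6 processing genes and 4 breakdown genes tested. In the other 3 classes and in all kept wells 0 were called, where the shares of all genes were those given above. P3h2 (1.43 ± 0.26, adjusted p = 1.96e-05) and the collagen-binding integrin Itga1 (1.49 ± 0.38, adjusted p = 0.00896) were higher, the Itga1 call being lost with wells named by marker score (adjusted p = 0.146), and Serpinh1 was lower (−1.77 ± 0.40, adjusted p = 0.00168), from 15 transcripts on the fasted plate and 180 on the fed plates.

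**Figure D5:**
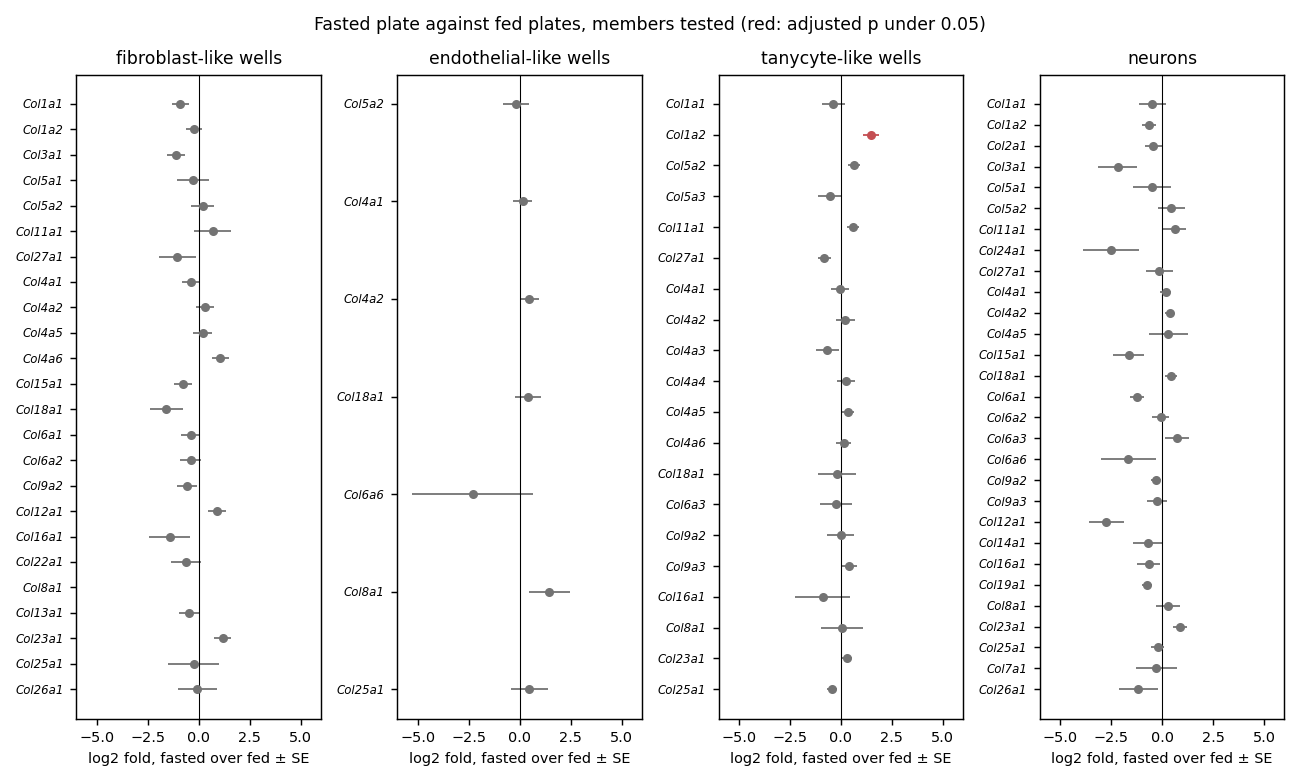
Log2 fold, fasted plate over fed plates, with its SE for every member tested in 4 classes of wells, 1 panel a class. The red point is Col1a2 in tanycyte-like wells, and Col8a1 in fibroblast-like wells has no point because the fasted plate held none of its transcripts.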

How the data were processed

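The authors deposited 1 table of expected counts per plate. Each value is a gene's number of UMIs (6 bases) in a well after their correction for collisions, and nothing was normalized. The submitters' processing notes name Trim Galore, STAR and the mm10 build, and the sources used here give neither counter nor annotation. Expected counts were rounded to whole transcripts. Spike-ins (92) and mitochondrial genes (35) stayed out of totals and tests. Every plate numbers its wells 1 to 384, so shared well numbers are not shared cells. No doublet caller was run on singly sorted cells. A cluster of 28 wells led by Hba-a1 and Hba-a2, 19 of them on fed plate 1, met 12 of 12 endothelial and 9 of 10 pericyte markers. It stayed unnamed and, like all 89 unnamed wells, counts among the remaining kept wells. Whether its wells are mixed was not tested.

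Wells were clustered with scanpy 1.11.5 on 2000 variable genes, 30 components and 10 neighbours (Leiden resolution 1.5, 24 clusters), leaving out collagens and the lists of genes that act on them. Names needed at least 3 markers at a log2 fold of at least 1 in at least 25% of wells. Neuron clusters were set by the summed level of 9 markers. Levels are CPM of plain sums, per plate for plates with at least 5 wells of a class, and over all plates from every kept well of it. Tests used edgeR 4.0.16 in R 4.3.3 (filterByExpr, TMM, robust quasi-likelihood, threshold 0.05 after Benjamini-Hochberg adjustment over all genes), on sums per plate. The SE is the log2 fold over the square root of F. The fit shares spread between genes, so small p-values do not rest on the plates of 1 gene alone. DESeq2 1.42.0, RLE factors, no filter, 2000 transcripts per well, Leiden 1.0 and 2.0, naming by marker score and leaving out each plate were alternatives. The fits were tested on simulated counts.

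Members with at least 50 transcripts were named with their levels. In each comparison up to 5 called members per direction were named by fold, or the 3 most abundant where none was called. The members and lists were chosen with earlier results of these data known.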

Additional observations from a re-analysis of the deposited data

Results flagged for a closer look

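For Col1a2 the fasted plate lay outside all 3 fed plates in opposite directions in different classes, a difference that was not tested. In tanycyte-like wells it stood at 89.9 CPM, above all fed plates. It stood below all fed plates in fibroblast-like wells, at 2724 (2749 on fed plate 3), in endothelial-like wells, at 0 (17, 1 and 3 transcripts on the fed plates), and in neurons, at 10.3. For Col18a1, likewise not tested, the fasted plate stood above all fed plates in neurons, at 19.1, and below all of them in fibroblast-like wells, at 42.3, a value from 3 transcripts in 3 wells.

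The 257 wells left out of every comparison for low depth or a high mitochondrial share held 355 collagen transcripts among 128854, which is 2755 CPM, against 1511 CPM in the kept wells. Of the 44 members, 24 had a transcript in such wells of the fasted plate, and 13, 30 and 30 in those of fed plates 1, 2 and 3.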

How the results depend on the processing

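Between fibroblast-like and remaining wells, tanycyte-like and remaining wells, neurons and remaining wells, and fibroblast-like and mural-like wells, and in fasted against fed endothelial-like wells (0 called), the number of members called stayed within 1.5 times under all alternatives run. Elsewhere it moved. The endothelial-like count ranged from 16 to 25 on leaving out 1 plate, the mural-like count from 5 to 10 (19 with naming by marker score), the AgRP-like count from 3 to 7 (3 with DESeq2), and the count of mural-like against endothelial-like wells from 2 to 5. The count of fibroblast-like against endothelial-like wells was 22 with no filter (21 higher and 1 lower). For fasted against fed, all kept wells gave 2 members with DESeq2, 6 with no filter and 0 to 9 on leaving out 1 plate. Fibroblast-like wells gave 0 to 2, neurons 1 with no filter and 0 to 1, and tanycyte-like wells 0 with DESeq2, no filter, Leiden resolution 2.0 or marker score and 0 to 1. Thinned to 2000 transcripts, all 8 shares of wells compared were higher, for example Col1a2 in 96.2% of fibroblast-like wells, Col23a1 in 95.9% and Col25a1 in 75.9% of tanycyte-like wells and Col4a2 in 15.4% of neurons. Signs turned for Col23a1 over all kept wells (log2 −0.00725 with no filter, and −0.26 to 0.22 on leaving out 1 plate), Col4a2 there (−0.27 to 0.0877) and Col4a1 in endothelial-like wells (−0.0413 to 0.40), none of them called. The cause of these changes was not tested. With at least 2000 transcripts per well, 3 comparisons with mural-like wells had too few plates to be fitted. No paired analysis was possible because there is 1 fasted plate and no label links it to a fed plate.

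Depth limits low members most: 1 transcript in mural-like wells of fed plate 1 is worth 57.3 CPM.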
